A study of Mus musculus with 4 samples.

Results

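Transcripts of the reductases, dehydrogenases, monooxygenases, epoxide hydrolases and carboxylesterases of detoxification were compared between G9a-deficient and WT mouse liver. Members were taken by symbol alone, as the probe sets that the array annotation assigns to exactly 1 gene of the aldo-keto reductase (Akr), aldehyde dehydrogenase (Aldh), alcohol dehydrogenase (Adh), carbonyl reductase (Cbr), carboxylesterase (Ces), flavin monooxygenase (Fmo), aldehyde oxidase (Aox), epoxide hydrolase (Ephx), 3-beta-hydroxysteroid dehydrogenase (Hsd3b) and 11-beta-hydroxysteroid dehydrogenase (Hsd11b) families. The rule used no measured value. It gave 77 of the 18193 genes that have a probe set of their own, and 118 of 34945 such probe sets. A further 6 probe sets named several genes, at least 1 of them of these families, and were left out.

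Total RNA came from non-tumorous liver of 30-week-old male mice on the C57BL/6 background, 2 of the genotype Alb-Cre; G9a+/+ (WT) and 2 that carry Alb-Cre with floxed G9a (G9aΔHep, labelled G9aKO), with 1 array for each mouse. All 4 mice, controls included, carried Alb-Cre and had received the carcinogen diethylnitrosamine (DEN, 25 mg/kg at day 15) and 22 weekly doses of the hepatotoxin carbon tetrachloride (CCl4, 0.5 ml/kg), so no liver here was untreated. Cre under the albumin promoter removes G9a, an H3K9 methyltransferase, from hepatocytes, while cells without albumin expression keep it. In whole liver, fewer cells of a type and less RNA per cell cannot be told apart.

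These enzymes carry out the first steps of handling foreign and endogenous reactive compounds in the hepatocyte. Dehydrogenases and oxidases turn alcohols and aldehydes into acids, reductases turn carbonyls into alcohols, epoxide hydrolases open epoxides and carboxylesterases split esters, before conjugation and export. Many of them also act on steroids, bile acids, retinoids and stored lipids, and several are known for expression that differs with sex, with zonation of the lobule and with nuclear receptor activity.

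Each probe set has a deposited MAS5 signal, which is linear and not logged, and the software's verdict on detection, namely Present, Marginal or Absent. The arrays called 41.3% to 43.9% of probe sets Present, and 95% of Absent signals lay below 170 to 181. Ehmt2, the gene of G9a, had signals of 640 and 492 in WT liver and of 174 and 164 in G9aΔHep liver, with the latter called Absent. WT liver thus exceeded G9aΔHep liver 3.33-fold (log2 difference -1.73, SE 0.23, adjusted p = 0.063 from limma). This fold is an estimate and not a lower limit. Whether the probe set lies in the deleted part was not determined here. Levels of different probe sets are not comparable on such arrays, so genotypes are compared within a gene. Signal is set across genes only as brightness on the array and in sums over the markers of a cell type. Neither is read as an amount of RNA.

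Of these enzymes, Akr1c20 alone passed the test between the genotypes. A gene was tested if a probe set was Present on at least 2 of the 4 arrays, which 56 of the 77 members were, and the brightest such probe set stood for the gene. Of the other 21, 17 were Present on no array (Adh6a, Adh6b, Akr1b10, Akr1c21, Aldh1a2, Aldh1a3, Aldh3a1, Aldh3b2, Aox4, Cbr2, Ces2b, Ces4a, Ces5a, Ephx3, Ephx4, Hsd11b2 and Hsd3b1) and 4 on 1 array (Adh6-ps1, Akr1c18, Akr1cl and Ces2f). The 56 tested are therefore not all members, and 1 of them, Aldh1l2, passed through the WT arrays alone. A difference was called at an adjusted p under 0.05 over all 10350 genes tested. Of the members, 1 was called higher in G9aΔHep liver, Akr1c20, beside 0.319% of all genes tested. None was called lower by limma, beside 0.0676% of all genes. At an unadjusted p under 0.05, 12 members were lower and 7 higher, beside 4.1% and 5.92% of all genes. The methods' t-test put 6 members lower and 2 higher at an unadjusted p under 0.05, and 0 in either direction after adjustment.

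The sizes of the differences were modest. The log2 difference, G9aΔHep minus WT, was under 0.5 in size for 42 of the 56 members and over 1 for 6. Its median size was 0.29 over the members and 0.19 over all genes tested, so the members differed more than the typical gene. The median gap between the arrays of a genotype was 0.24 on the log2 scale in both sets. Both G9aΔHep arrays lay below both WT arrays for 27 members, beside 19.3% of all genes tested, and above both for 11, beside 22.3%. For 18 members the genotypes overlapped. With 2 arrays a genotype, an exact permutation test of a single gene cannot give a p under 0.33, so these counts describe the 4 livers. Leaving out 1 array moved the difference by over 1.5 times in 34 of the 56 members, most of them small, and in 3 of the 14 over 0.5 in size, Hsd3b2, Aox3 and Aldh18a1 (-1.31 to -0.04).

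The members lay below the WT level more often than not. Their median log2 difference was -0.20, beside 0.02 over all genes tested, and 69.6% of them lay below 0, beside 46.6% of all genes. The members are bright, with a median mean log2 signal of 12.6 against 9.36 over all genes, and bright genes as a whole also lay lower. Of the 1260 genes with a mean log2 signal of at least 12, 65.6% lay below 0 with a median of -0.07, and of the 34 members among them 79.4% did with a median of -0.21. At a mean log2 signal of at least 14 the gap was smaller, with 80.0% of 15 members and 74.8% of 318 genes below 0 and medians of -0.13 and -0.08. The part of brightness in the members' median was not tested otherwise. When the arrays were quantile-normalized the members' median was -0.13, and no family median changed sign under that scaling or under centring of each array on its median. Among the 39 members below 0, G9aΔHep array 1 was the lowest of the 4 arrays for 24 (61.5%) and G9aΔHep array 2 for 14 (35.9%). Of all 4822 genes below 0 these arrays were the lowest for 44.9% and 42.8%. A gene chosen for lying below 0 is nearly bound to be lowest on a G9aΔHep array. Array numbers follow the order of deposit and pair no animals.

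**Figure D1:**
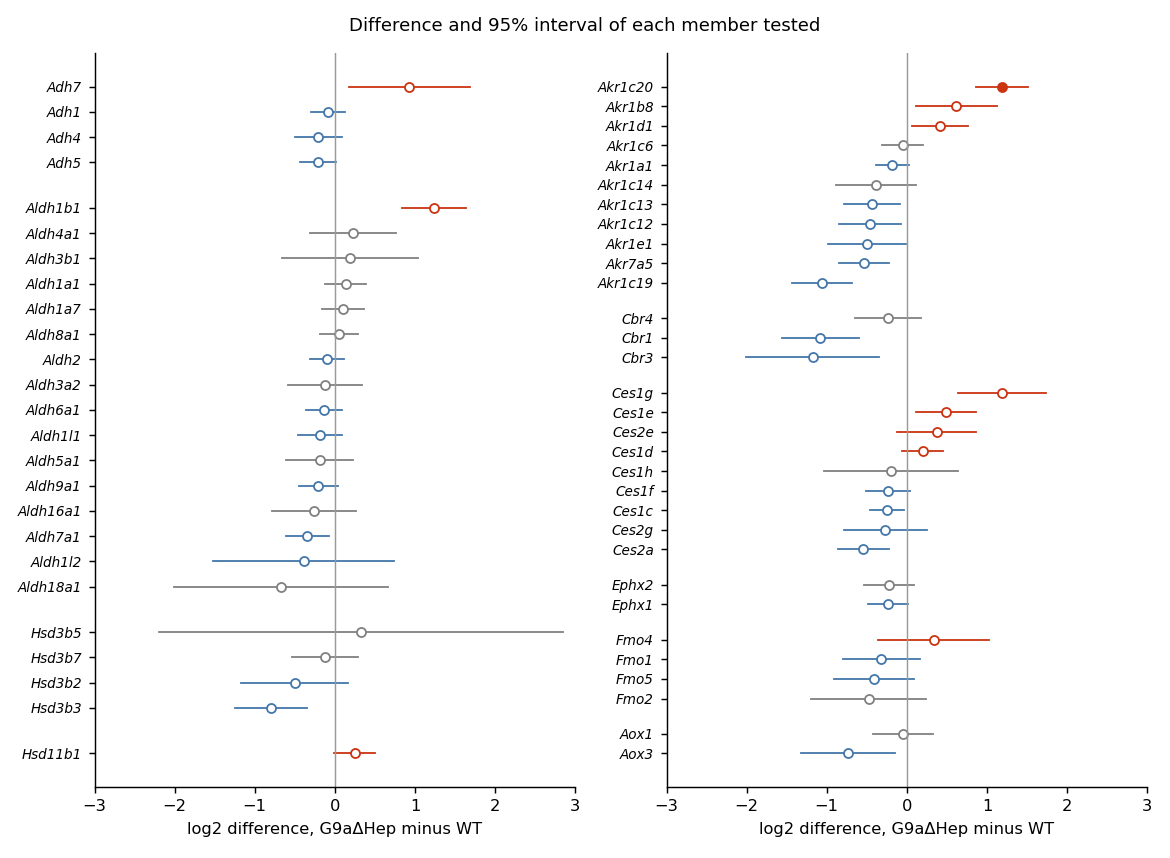
The log2 difference (G9aΔHep minus WT, x axis) of each of the 56 members tested, with its 95% interval from limma, by family. Red marks genes whose G9aΔHep arrays both lie above the WT arrays, blue both below and grey an overlap. The filled point is Akr1c20, the only member past the adjusted threshold, and 39 of the 56 points lie left of 0.

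The 6 members with a log2 difference over 1 in size were Aldh1b1, Akr1c20 and Ces1g, with higher signals in G9aΔHep liver, and Akr1c19, Cbr1 and Cbr3, with lower ones. The 250 bases before the transcription start are printed for those with a window in the RefSeq promoter table (GRCm38.p6), because these are the members whose levels stood furthest apart between the genotypes and because Cbr1 and Cbr3 are neighbours on chromosome 16. Each sequence runs 5′ to 3′ on the strand of the gene. Capitals mark matches, on either strand, to any of 7 short motifs: TGACNNNGC (antioxidant response element core), GCGTG (xenobiotic response element core), CCAAT (the box bound by NF-Y), TATAAA (the core promoter box), TTGCNNAA (C/EBP), AGGTCA (nuclear receptor half-site) and TGTTTNC (forkhead). No printed matches overlap.
Cbr1 (chr16:93607587-93607836, plus strand): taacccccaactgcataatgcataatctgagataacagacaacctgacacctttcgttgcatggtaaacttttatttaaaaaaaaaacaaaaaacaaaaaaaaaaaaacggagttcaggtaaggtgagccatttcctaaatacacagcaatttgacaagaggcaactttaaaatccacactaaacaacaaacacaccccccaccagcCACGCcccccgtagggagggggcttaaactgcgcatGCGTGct
Cbr3 (chr16:93682969-93683218, plus strand): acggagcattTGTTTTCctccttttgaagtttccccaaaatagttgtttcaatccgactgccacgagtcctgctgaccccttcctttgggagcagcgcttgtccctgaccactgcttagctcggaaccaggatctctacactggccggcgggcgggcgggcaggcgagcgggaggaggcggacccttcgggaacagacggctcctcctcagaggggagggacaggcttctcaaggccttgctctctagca
Akr1c19 (chr13:4233490-4233739, plus strand): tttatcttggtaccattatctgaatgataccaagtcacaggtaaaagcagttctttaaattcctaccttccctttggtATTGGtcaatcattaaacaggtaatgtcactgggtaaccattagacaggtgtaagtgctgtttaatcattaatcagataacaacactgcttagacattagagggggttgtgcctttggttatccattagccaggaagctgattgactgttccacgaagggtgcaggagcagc
Aldh1b1 (chr4:45798772-45799021, plus strand): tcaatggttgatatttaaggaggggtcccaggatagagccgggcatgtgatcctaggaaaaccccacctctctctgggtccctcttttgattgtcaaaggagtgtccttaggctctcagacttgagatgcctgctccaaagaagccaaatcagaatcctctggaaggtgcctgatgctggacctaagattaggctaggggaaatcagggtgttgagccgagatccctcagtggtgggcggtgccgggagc
Ces1g (chr8:93337210-93337459, minus strand): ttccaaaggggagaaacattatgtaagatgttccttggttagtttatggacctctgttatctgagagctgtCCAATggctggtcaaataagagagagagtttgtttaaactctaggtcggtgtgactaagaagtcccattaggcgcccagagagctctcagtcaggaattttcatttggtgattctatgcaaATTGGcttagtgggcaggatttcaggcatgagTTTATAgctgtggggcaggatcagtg

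The Cbr1 window held GCGTG at 7 bases before the start and its reverse complement at 43, the only matches in it. The Cbr3 window held TGTTTNC at 240 bases. The Akr1c19 window held CCAAT on the opposite strand at 172 bases. The Ces1g window held CCAAT at 179 bases and, on the opposite strand, CCAAT at 58 and TATAAA at 26 bases, and the Aldh1b1 window held none of the 7 motifs. A window of this table was found for 62 members, with 68 windows in all, and was missing for the other 15. Of the members' windows 7.35% held TGACNNNGC, 17.6% GCGTG, 47.1% CCAAT, 14.7% TATAAA, 17.6% TTGCNNAA, 16.2% AGGTCA and 22.1% TGTTTNC. Over all 32851 windows of that length these shares were 10.2%, 28.2%, 33.8%, 12.4%, 9.56%, 14% and 17.8%. A match is a description of the letters and not a binding site.

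**Figure D2:**
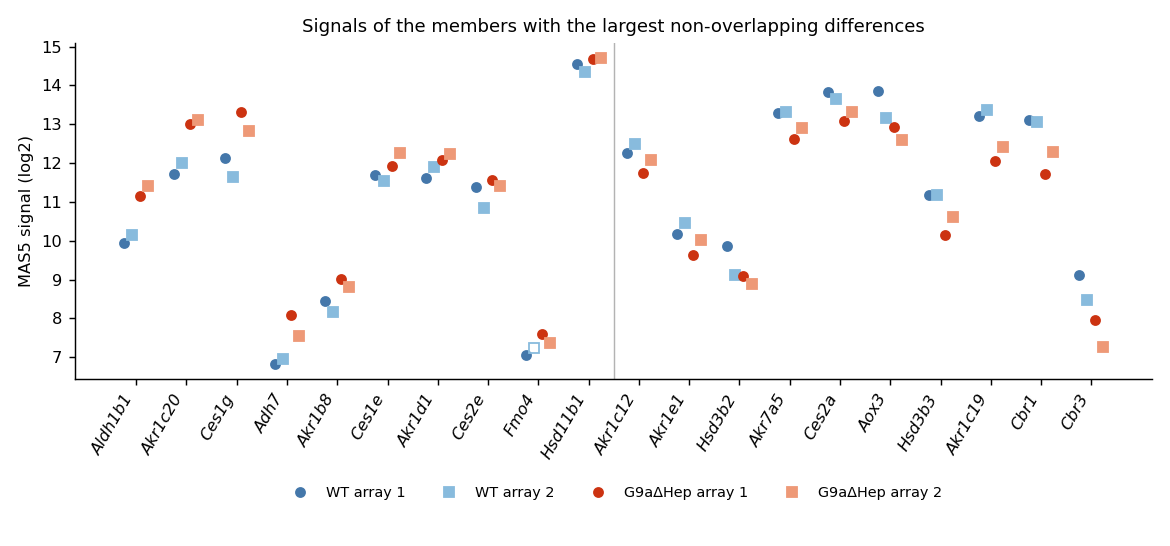
MAS5 signals (log2, y axis) on each array for the 10 members with the largest non-overlapping difference in each direction, those higher in G9aΔHep liver left of the line and those lower right of it. Circles and squares are the first and second array of a genotype, and the open symbol is a signal not called Present. Levels of different genes are not comparable on this axis. Signals of Akr1c20 were 3402 and 4068 in WT and 8206 and 8770 in G9aΔHep liver.

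Among the aldo-keto reductases, which reduce aldehydes, ketosteroids and prostaglandins with NADPH, the Akr1c genes lay on both sides of the WT level. Akr1c20 had signals of 3402 and 4068 in the WT livers and of 8206 and 8770 in the G9aΔHep livers. Both G9aΔHep livers were therefore above both WT livers, with means of 8488 ± 399 and 3735 ± 471 (SD, n = 2 each). Akr1c20 rose 2.28-fold (log2 difference 1.19, SE 0.13, adjusted p = 0.0361 from limma). A second Akr1c20 probe set, with signals of 265 and 179 in WT and 304 and 399 in G9aΔHep liver, differed by 0.68 on the log2 scale (adjusted p = 0.542 from limma over probe sets). The call on Akr1c20 was lost when both probe sets were averaged (0.93, adjusted p = 0.114 from limma), without the detection filter (adjusted p = 0.0547), without the mean-variance trend (adjusted p = 0.236) and by the methods' t-test (adjusted p = 0.53). It was also lost when any of the 4 arrays was left out, with adjusted p-values from limma of 0.188 and 0.102 without a WT array and of 0.0581 and 0.0525 without a G9aΔHep array. The log2 difference itself stayed between 1.06 and 1.32 in those fits.

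Akr1c19, another reductase of the same cluster, stood at the opposite end. Its signals were 9503 and 10568 in WT liver and 4254 and 5434 in G9aΔHep liver. The genotypes did not overlap, and the signal was 2.08-fold lower in G9aΔHep liver (log2 difference -1.06, SE 0.15, adjusted p = 0.0747 from limma). Its difference ran from -1.24 to -0.88 when 1 array was left out.

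Of the 7 genes tested in this cluster on chromosome 13, Akr1c20 alone had a log2 difference above 0, although Akr1c6 was at 0.04 after quantile normalization. In the order of RefSeq the genes run Akr1c14, Akr1c18, Akr1c13, Akr1c19, Akr1c12, Akr1c6, Akr1c20, Akr1c21 and Akr1e1, with Akr1c18 and Akr1c21 not tested. Akr1c13 had signals of 5956 and 6614 in WT and 4205 and 5140 in G9aΔHep liver, which is -0.43 on the log2 scale (SE 0.14, limma adjusted p = 0.405). Akr1c12 had 4918 and 5779 against 3451 and 4349, a log2 difference of -0.46 (adjusted p = 0.431). Both G9aΔHep livers lay below both WT livers for Akr1c13 and Akr1c12, as they did for Akr1e1, which reduces 1,5-anhydrofructose, with 1162 and 1409 against 787 and 1041 (-0.50, adjusted p = 0.495). Akr1c14, a 3-alpha-hydroxysteroid dehydrogenase, overlapped between genotypes, with 18540 and 15318 against 10632 and 15709 (-0.38). Akr1c6, a 17-beta-hydroxysteroid dehydrogenase, differed least of these, with 28348 and 27167 against 28529 and 25148 (-0.05). These genes are close copies of each other, and how far their probe sets hybridise to a neighbour's RNA was not tested.

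**Figure D3:**
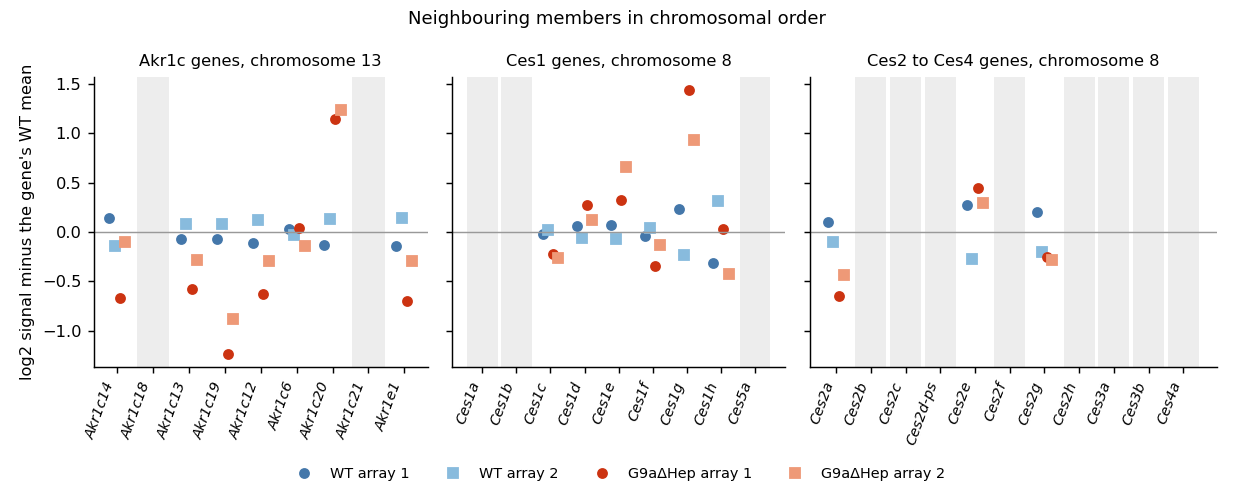
Log2 signal minus the gene's WT mean (y axis) on each array for members in their order along the chromosome. The Akr1c cluster lies on chromosome 13 and the Ces1 and Ces2 to Ces4 clusters on chromosome 8. Shaded positions are genes not tested or not analysed here. Akr1c20 stands above its neighbours and Akr1c19 below them, and Ces1g stands above the other Ces1 genes.

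The other aldo-keto reductases differed by less. Akr7a5, which reduces the aldehyde of aflatoxin, had signals of 10078 and 10124 in WT and 6311 and 7637 in G9aΔHep liver, below in both livers (log2 difference -0.54, SE 0.13, adjusted p = 0.24 from limma), and its second detected probe set gave -0.67. Akr1a1, the aldehyde reductase that also serves ascorbate synthesis, had 51227 and 50757 against 44712 and 45185 (-0.18), and its 4 detected probe sets ranged from -0.32 to -0.18. In the other direction, Akr1d1, the steroid 5-beta-reductase of bile acid synthesis, had 3147 and 3794 against 4337 and 4853 (0.41, adjusted p = 0.434). Akr1b8, an aldose reductase-like enzyme of retinal and lipid aldehydes, had 346 and 286 against 518 and 451 (0.62, adjusted p = 0.421). For Akr1d1 and Akr1b8 both G9aΔHep livers lay above both WT livers. Of the 11 Akr genes tested, 6 lay below WT without overlap and 3 above, beside 19.3% and 22.3% of all genes tested. The median of the Akr genes was -0.38.

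All 3 carbonyl reductases tested had a log2 difference below 0, and the larger of these belonged to adjacent genes. Cbr1, the cytosolic reductase of quinones, prostaglandins and anthracyclines, had signals of 8813 and 8561 in WT and 3358 and 5033 in G9aΔHep liver. Both G9aΔHep livers lay well below the WT livers, whose signals were close to each other, and the signal was 2.11-fold lower (log2 difference -1.08, SE 0.20, adjusted p = 0.145 from limma). The Cbr1 difference ran from -1.37 to -0.79 when 1 array was left out. Cbr3, the related reductase whose gene follows Cbr1 with only the pseudogene Gm5678 between them in RefSeq, had 556 and 357 against 251 and 155. It did not overlap either (2.26-fold lower, log2 difference -1.18, SE 0.34), but its arrays of 1 genotype were further apart and the adjusted p was 0.337. Cbr4, of mitochondrial fatty acid synthesis, had 1693 and 2161 against 1551 and 1704 and overlapped (-0.24). Cbr2 was Absent on all arrays.

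The aldehyde dehydrogenases held the largest positive difference and otherwise little. Aldh1b1, a mitochondrial acetaldehyde and retinaldehyde dehydrogenase, had signals of 979 and 1140 in WT and 2266 and 2731 in G9aΔHep liver. The genotypes were well apart, at 2.35-fold (log2 difference 1.24, SE 0.16), but the adjusted p was 0.063 from limma, and over its alternatives it ranged from 0.057 to 0.53, never under the threshold. Aldh1a1, the cytosolic retinaldehyde dehydrogenase, overlapped with 35852 and 39770 against 43815 and 39317 (0.14, adjusted p = 0.711). Aldh1a7, its close relative, also overlapped (0.10).

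Aldh2, the main mitochondrial enzyme of acetaldehyde clearance, had 41435 and 41765 in WT and 38415 and 39466 in G9aΔHep liver at its brightest probe set (-0.10, adjusted p = 0.752 from limma). Its 5 detected probe sets ran from -0.34 to 0.72, so no direction is given for Aldh2, and with their mean the difference was 0.16. Aldh7a1, which oxidises betaine aldehyde and an intermediate of lysine breakdown, had 16628 and 14816 against 12797 and 11910 (-0.35, adjusted p = 0.393) and did not overlap. The remaining members, Aldh1l1, Aldh1l2, Aldh3a2, Aldh3b1, Aldh4a1, Aldh5a1, Aldh6a1, Aldh8a1, Aldh9a1, Aldh16a1 and Aldh18a1, lay between -0.67 and 0.23 with adjusted p-values of 0.556 or more. Aldh1l2 was not Present on either G9aΔHep array, with signals of 65.8 and 74.0 in WT liver against 51.7 and 54.8. Its log2 difference was -0.39 (SE 0.46, adjusted p = 0.818 from limma). These signals lie within the range of Absent signals. Aldh1l2 was tested only because both WT arrays called it Present, so its selection favours a higher WT signal. No direction is given for Aldh1l2. Of the 16 tested, 6 lay below WT without overlap, and 1, Aldh1b1, above. Over all genes tested these shares were 19.3% and 22.3%. Among the 6 are Aldh1l2 and Aldh2, although no direction is given for either. Aldh1l1 is also among them, although its 2 detected probe sets gave -0.19 and 0.28, and their mean 0.05.

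**Figure D4:**
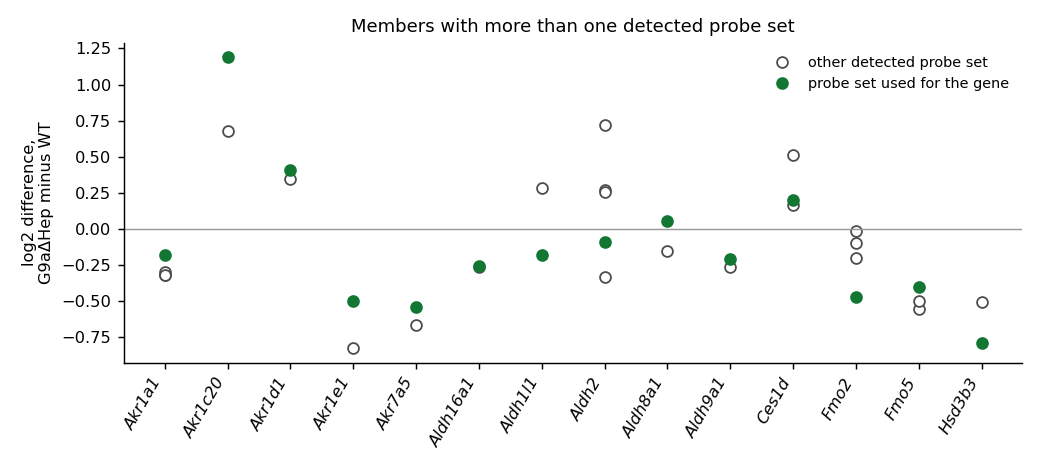
Log2 difference (G9aΔHep minus WT, y axis) of each detected probe set for the 14 members with more than 1. The filled point is the probe set used for the gene and the open points are the others. In 11 of the 14 genes all detected probe sets have the same sign, and Aldh1l1, Aldh2 and Aldh8a1 have both signs.

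The alcohol dehydrogenases form 1 cluster on chromosome 3. Adh1, the main hepatic oxidiser of ethanol and retinol, had signals of 50873 and 49862 in WT and 48611 and 45952 in G9aΔHep liver (log2 difference -0.09, SE 0.09, adjusted p = 0.764 from limma). Adh5, which clears formaldehyde bound to glutathione, had 25495 and 25109 against 21438 and 22258 (-0.21, adjusted p = 0.516), and Adh4 had 7346 and 7300 against 5891 and 6825 (-0.21). All 3 lay lower in both G9aΔHep livers, by little, beside 19.3% of all genes tested. After quantile normalization the Adh1 difference was -0.004. Adh7, a retinol dehydrogenase best known from epithelia of the stomach, lay the other way, with 114 and 124 against 272 and 188. It did not overlap (0.93, SE 0.31, adjusted p = 0.413), but both of its WT signals are below the level under which 95% of Absent signals fall. Without the detection filter a brighter Adh7 probe set, Absent on all 4 arrays with 239 and 146 against 185 and 236, stood for the gene and gave 0.16.

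The hydroxysteroid dehydrogenases were led by Hsd3b3, which oxidises and isomerises 3-beta-hydroxysteroids. Its signals of 2321 and 2317 in WT liver and 1137 and 1572 in G9aΔHep liver did not overlap (1.73-fold lower, log2 difference -0.79, SE 0.19, adjusted p = 0.237 from limma). A second probe set, with 816 and 523 against 287 and 738, gave -0.51 and overlapped. Hsd3b2, its neighbour on chromosome 3, had 932 and 560 against 547 and 475 (-0.50, adjusted p = 0.599), and rested on the first WT array, with -0.13 without it and -0.87 without the second. Hsd3b7, the bile acid synthesis enzyme, overlapped with 18574 and 16960 against 19256 and 13872 (-0.12, and 0.12 without G9aΔHep array 2). Hsd11b1, which regenerates active glucocorticoid, had 23953 and 20941 against 26442 and 26759, higher in both G9aΔHep livers (0.25, SE 0.10, adjusted p = 0.511).

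Hsd3b5, a 3-ketosteroid reductase known as a male-specific liver enzyme, varied more within a genotype than between them. Its signals were 1988 and 221 in WT and 1439 and 479 in G9aΔHep liver. In each genotype 1 liver was several times higher than the other, and the log2 difference of 0.33 had an SE of 1.03 and ran from -1.26 to 1.91 when 1 array was left out. The male-biased elongase Elovl3, with 15753 and 6864 against 14454 and 6083, and the transporter Slco1a1, with 5897 and 2607 against 5402 and 3673, were high and low in the same livers. These were picked after their values were seen. Of the 9 male-biased genes measured, 6 were higher on array 1 than on array 2 in both genotypes, some by little, while Keg1, Cyp4a12a and Cyp2u1 ran the other way within G9aΔHep. Between the genotypes, 6 of the 9 lay below 0 and 3 above, with a median of -0.16. Of all genes tested 46.6% lay below 0, and of those with a mean log2 signal of at least 12, 65.6%. Of 7 female-biased genes, 5 lay above 0 and 2 below, Cyp3a44 (-0.81) and Cux2 (-0.33), with a median of 0.79. The 2 called higher were Cyp17a1 (2.85, adjusted p = 0.0262 from limma) and Abcd2 (2.26, adjusted p = 0.0435), beside 0.319% of all genes tested. Whether these genes share a cause with the members was not tested.

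**Figure D5:**
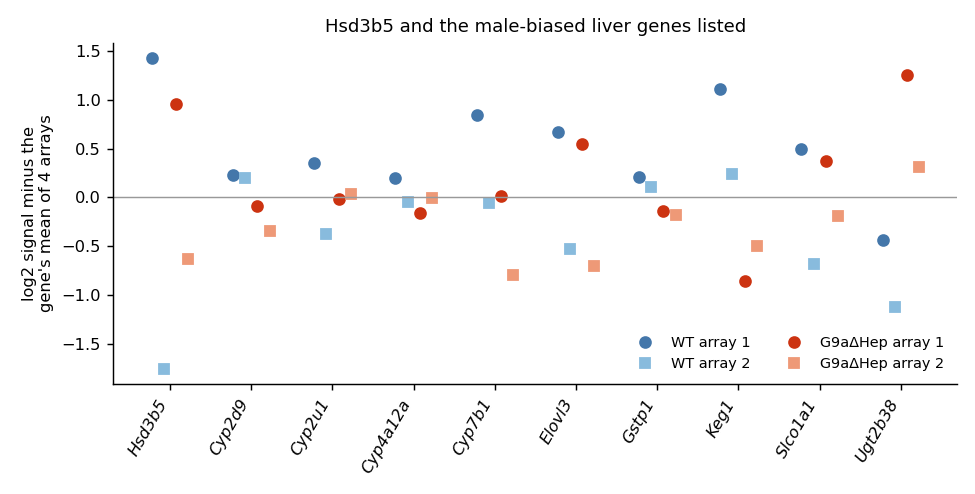
Log2 signal minus the gene's mean over the 4 arrays (y axis) for Hsd3b5 and the 9 male-biased liver genes measured. Circles and squares are the first and second array of WT (blue) and G9aΔHep (red). Hsd3b5, Elovl3 and Slco1a1 are high on WT array 1 and G9aΔHep array 1 and low on the other two, while Keg1, Cyp4a12a and Cyp2u1 are lower on array 1 than on array 2 of G9aΔHep.

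The carboxylesterases divided by gene and not by cluster. Ces1g, which hydrolyses drug esters and triacylglycerol, had signals of 4460 and 3222 in WT and 10245 and 7221 in G9aΔHep liver. The genotypes did not overlap, at 2.27-fold (log2 difference 1.18, SE 0.22, adjusted p = 0.157 from limma). Leaving out 1 array gave differences from 0.93 to 1.43. In the same cluster on chromosome 8, Ces1e, known as egasyn for holding beta-glucuronidase in the endoplasmic reticulum, had 3292 and 2967 against 3924 and 4922 (0.49, adjusted p = 0.379). Ces1d, a triacylglycerol hydrolase, had 29405 and 27155 against 34084 and 30722 (0.20, adjusted p = 0.586). A further Ces1d probe set, of the kind that can hybridise to other transcripts, had 4327 and 10545 against 5327 and 17450 and differed more within than between genotypes.

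The neighbours Ces1c, the esterase of mouse plasma, and Ces1f lay the other way. Ces1c had 48070 and 49420 in WT and 41668 and 40535 in G9aΔHep liver (-0.25, adjusted p = 0.431 from limma), and Ces1f had 20498 and 21806 against 16616 and 19330 (-0.24). Of the Ces2 group, Ces2a, a drug and diacylglycerol esterase, had 14646 and 12763 against 8692 and 10133, lower in both G9aΔHep livers (-0.54, SE 0.13, adjusted p = 0.243). Ces2e had 2670 and 1828 against 3013 and 2705, higher in both (0.37), and Ces2g had 587 and 443 against 429 and 418, lower in both (-0.27). Ces1h overlapped. Of the 9 tested, 4 lay above WT without overlap and 4 below, beside 22.3% and 19.3% of all genes tested.

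Aox3, the main aldehyde oxidase of mouse liver, had signals of 14768 and 9201 in WT and 7867 and 6237 in G9aΔHep liver. The genotypes did not overlap, but the WT livers were far apart (log2 difference -0.73, SE 0.24, adjusted p = 0.405 from limma), and the difference was -0.39 without WT array 1 and -1.08 without WT array 2. Its neighbour Aox1 overlapped with 5644 and 4466 against 4593 and 5119 (-0.05, with either sign when 1 array was left out).

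Of the 4 flavin monooxygenases tested, which oxidise nitrogen and sulphur in drugs, 3 lay below 0 and 1 above, with a median of -0.36. Fmo5, which can also insert oxygen next to a ketone, had 16173 and 17127 in WT and 10121 and 15604 in G9aΔHep liver (-0.41, SE 0.20, adjusted p = 0.572 from limma), and its 3 detected probe sets ran from -0.56 to -0.41. Fmo1 had 7079 and 7028 against 4642 and 6906 (-0.32). In Fmo5 and Fmo1 both G9aΔHep livers lay below WT, array 1 by far the more. Fmo2 overlapped, with 593 and 697 against 610 and 349 and array 2 the lower (-0.48), and Fmo4 lay higher in both G9aΔHep livers with 134 and 150 against 195 and 164 (0.34, adjusted p = 0.736), signals near the level of Absent probe sets.

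The epoxide hydrolases differed little. Ephx1, the microsomal form that acts on epoxides of foreign compounds, had 25292 and 23217 against 19790 and 21359, lower in both G9aΔHep livers (-0.24, SE 0.10, adjusted p = 0.516 from limma). Ephx2, the soluble form that acts on epoxides of fatty acids, had 34626 and 41758 against 30601 and 34822 and overlapped (-0.22).

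Related genes outside these families were taken as 3 lists. Of 40 other oxidoreductases and esterases tested, 0 were called, and the median was -0.03. Over all genes tested, 0.319% were called higher and 0.0676% lower. At an unadjusted limma p under 0.05, 4 of the 40 were higher and 2 lower, beside 5.92% and 4.1% of all genes. Hsd17b6, which acts on 3-alpha and 17-beta hydroxysteroids, had 4812 and 4684 in WT and 2002 and 2539 in G9aΔHep liver (-1.07, adjusted p = 0.0735), and 0.08 with the mean of its probe sets. The retinal reductase Rdh11 was at 0.98 (adjusted p = 0.243) and the biliverdin reductase Blvrb at -0.49 (adjusted p = 0.357).

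Of 27 xenobiotic receptors and liver regulators tested, 0 were called, and the median was 0.02. At an unadjusted limma p under 0.05, 2 were higher and 1 lower, beside 5.92% and 4.1% of all genes. Nr0b2 (SHP), a repressor of bile acid synthesis, had 2513 and 2982 against 1345 and 1652 (-0.88, adjusted p = 0.157). Nr1i3 (CAR), which drives many drug-metabolising genes, had 2439 and 2528 against 3203 and 3267 (0.38, adjusted p = 0.379), and Foxa3 was at 0.41 (adjusted p = 0.463).

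Of 20 NRF2 targets outside the families, 15 lay below 0 and 5 above, beside 46.6% of all genes below 0. Most of these targets are bright. Of all genes with a mean log2 signal of at least 10, 56.1% lay below 0, and of those at 12 or more, 65.6%. Their median was -0.18. None was called by limma. At an unadjusted limma p under 0.05, 7 were lower and 3 higher, beside 4.1% and 5.92% of all genes. The 3 higher were Hmox1 (0.93), Me1 (0.60) and Pgd (0.55). The glutathione transferase Gsta4, which conjugates lipid aldehydes, had 3928 and 3544 in WT and 1382 and 1866 in G9aΔHep liver (-1.22, adjusted p = 0.0793). Gsta2 was at -0.79 (adjusted p = 0.163) and Ugdh, which makes the donor of glucuronidation, at -0.76 (adjusted p = 0.113).

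Cell type markers give the setting of these values. Of 9 hepatocyte markers, 6 lay below 0 and 3 above, with a median of -0.05. All 10 macrophage and Kupffer cell markers lay above 0 (median 0.38), with summed signals of 33454 and 48965 in WT and 71815 and 46008 in G9aΔHep liver. All 9 stellate cell and fibroblast markers tested did too (median 0.55), with sums of 12808 and 17549 against 23219 and 14406. Gene by gene, 5 of these 9 lay above WT without overlap, and 3 of the 10 macrophage and Kupffer cell markers did, beside 22.3% of all genes tested. None of either list was called by limma. The brightest markers weigh most in a sum, as Dcn does among stellate markers with 6761 and 11124 against 12203 and 8238. The sums of both lists overlapped between genotypes, and G9aΔHep array 1 was the highest in each. That array was the lowest for 61.5% of the members below 0 and for 44.9% of all genes below 0. Of the cholangiocyte markers 2 were tested, with summed signals of 248 and 204 against 738 and 436, while Krt19, Krt7, Epcam and Cftr were Present on at most 1 array and not tested. Of the zonal markers, 8 of 9 pericentral genes lay above 0 (median 0.11) and 3 of 8 periportal genes (median -0.02). Markers of sinusoidal endothelium had a median of -0.05 (7 tested), those of neutrophils 0.15 (2 tested), those of B and plasma cells 0.02 (4 tested) and those of T and NK cells -0.33 (2 tested). The part of other cell types in the members' values was not tested.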

How the data were processed

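Liver RNA of 2 WT and 2 G9aΔHep mice was hybridised to 1 Affymetrix array each. The authors processed the arrays with MAS5, per the submitters' processing notes; its version, the annotation and the genome build are not given in the sources used here. Deposited signals are a linear intensity, which the authors corrected for background and scaled to a 2% trimmed mean of 500.0 on every array, with a detection p-value and call that the authors' software deposited beside each signal. A second deposited table held the same signals (largest relative difference 5e-06).

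Of 45101 probe sets, 64 controls were left out, 34945 named 1 gene, 932 several and 9160 none. Symbols were checked against RefSeq for 34741, and 0 changed. The deposited signals were converted to log2 without a pseudocount and compared for 10350 genes with limma 3.58.1 in R 4.3.3 (lmFit, eBayes with trend, 2 residual and 4.02 prior degrees of freedom), with Benjamini-Hochberg adjustment at 0.05, after a test of the scripts on simulated data. Each gene was the brightest probe set Present on at least 2 arrays. For the fold of Ehmt2, signals of the group without a Present call were set no lower than the array's lowest Present signal. They already exceeded it, so the fold did not change. The number of arrays limits the precision. The p-values from limma rest on the spread between 2 mice a genotype, drawn toward the spread of other genes of similar signal. They are not a measure of that gene's spread between mice alone. Labels give no batch, date or pairing.

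Groups came from the genotype labels. Named genes were members past the threshold, the 10 largest non-overlapping differences in each direction, the 2 brightest genes of each family, members with discordant probe sets, up to 3 genes of each related list, and Ehmt2. Other members are named to account for each. Hmox1, Me1 and Pgd were added after their values were seen and are outside the count of named genes. Members and lists were chosen with earlier results of these data known, and the comparisons above a mean log2 signal of 12 and of 14 after the values were seen. Alternatives were the mean of probe sets, other detection filters, centring, quantile normalization, a pseudocount of 32, no trend, the methods' t-test and leaving out each array. Promoter windows are from RefSeq GRCm38.p6. Figures were drawn with matplotlib 3.10.9.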

Additional observations from a re-analysis of the deposited data

How the results depend on the processing

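The members' median log2 difference kept its sign under every alternative run (-0.27 to -0.13), and the counts of members without overlap stayed within 1.5 times the reported 11 and 27. The 1 member called higher became 0 with the mean of the detected probe sets, without the detection filter, without the mean-variance trend and with the methods' t-test after adjustment, was 2 with that t-test unadjusted, and 0 to 1 when 1 array was left out. Without G9aΔHep array 2 the 1 called higher was Ces1g. The 0 members called lower became 6 with the unadjusted t-test and 0 to 2 when 1 array was left out, the 2 being Akr1c19 and Cbr1 without G9aΔHep array 2. Of all genes, the 33 called higher became 19 when Present on all 4 arrays, 11 without a filter, 0 without the trend and with the adjusted t-test, 449 with the unadjusted t-test, and 8 to 54 when 1 array was left out. The 7 called lower became 4 without a filter, 0 without the trend and with the adjusted t-test, 406 with the unadjusted t-test, and 0 to 17 when 1 array was left out. Of 45 named genes, 40 kept their sign in every fit. The others changed sign: Akr1c6 (0.038 with quantile normalization, -0.14 to 0.040 when 1 array was left out), Aldh2 (0.16 with the mean of probe sets, 0.0052 with quantile normalization), Aox1 (-0.22 to 0.12 when 1 array was left out), Hsd3b7 (-0.36 to 0.12 when 1 array was left out) and Hsd17b6 (0.082 with the mean of probe sets). The cause was not tested. No paired analysis was possible because the labels give no replicate numbers that the genotypes share. Signals near those of Absent probe sets, such as Adh7, Fmo4 and, on G9aΔHep array 2, Cbr3, are the least certain.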
